A study of Mus musculus with 8 samples.

Results

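Hepatocytes build triglyceride on a glycerol backbone and export part of it in very low density lipoprotein (VLDL). The 9 genes described here are enzymes and loading factors of that route, taken by name in pathway order: Gpam, Agpat2, Lpin1, Lpin2, Dgat1, Dgat2, Mogat1, Mttp and Tm6sf2. All 9 were found among the 21049 gene symbols of the deposited table. RNA had been sequenced from 4 alcohol samples and 4 control samples (saline), all labelled as wild-type (WT) mouse liver, with C57BL/6 as the strain in the design text. Age, the dose of alcohol and how long it was given are not in the sources used here. The labels also name hepatocytes and AML12, a mouse hepatocyte line, and give every sample the same batch entry. Nothing in these sources says that each sample came from its own animal, so p-values measure only the spread between these samples, which may be technical.

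In this route a fatty acid is first joined to glycerol 3-phosphate, another fatty acid is added, the phosphate is removed, and a last acyl transfer turns diacylglycerol into triglyceride. The droplet core of VLDL is then loaded onto apolipoprotein B in the endoplasmic reticulum. In liver the balance between this synthesis, export and the burning of fatty acids is known to set how much fat the tissue stores, and fat storage is an early feature of alcohol-related liver disease.

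Library totals, recovered from the deposited values, were 37132631 to 38407511 reads in alcohol samples and 33872595 to 34789814 reads in control samples. Summed levels of 7 hepatocyte markers (Alb, Ttr, Apoa1, Fgb, Hpx, Ass1 and Cps1) were 53617 to 63714 FPKM in alcohol samples and 61692 to 66676 FPKM in control samples. Most of that sum was Alb, and by the test below Ass1 and Cps1 were higher and Ttr and Apoa1 lower with alcohol. FPKM counts fragments relative to the length of the gene and the total of the library. The 10 Kupffer cell and macrophage markers summed to 63.3 to 105 FPKM in alcohol samples and 50.1 to 154 FPKM in control samples. All 7 endothelial markers (among them Lyve1 and Kdr) were higher with alcohol by the test below, and their sum was 62.7 to 76.0 FPKM in alcohol samples against 14.7 to 23.8 FPKM in control samples. Of 8 stellate cell markers 5 were higher and 1 was lower, with sums of 118 to 170 FPKM in alcohol samples and 47.8 to 84.8 FPKM in control samples. Adipocyte markers, which matter because fat cells share most of these enzymes, summed to 0.139 to 0.842 FPKM in alcohol samples and 4.89 to 26.7 FPKM in control samples, and most of the control sum was Cfd. In tissue RNA, fewer cells of a type and less RNA per cell cannot be told apart, and the part of these marker differences in the results below was not tested.

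Groups were compared with limma on log2(FPKM + 1) over 9228 genes, those averaging 1 FPKM or more, and p-values were adjusted by the Benjamini-Hochberg method over all of them. Of the 9 genes 8 passed that minimum, Mogat1 being the exception, and 3 rose with alcohol (Dgat2, Tm6sf2 and Mttp) while 1 fell (Lpin1). Among all tested genes 44.2% were called higher and 13.0% lower, so the members' counts are near the share among all genes. The few members at each step do not stand for whole sections of the route, whose other genes are given below. Gpam and Agpat2, of the acyl transfers that open the route, gave no call. The lipin Lpin1 was lower in 3 of 4 alcohol samples than in any control sample. Dgat2 and both loading factors were higher in every alcohol sample than in any control sample, as were 39.5% of all tested genes. FPKM is relative to the library total, so a median change does not measure a rise of all RNA, and its size varied with the expression minimum. The median log2 change was 0.02 over all 21049 genes and 0.16 over the 5205 genes averaging 5 FPKM or more. Over the 9228 tested genes it was 0.24. Scaling by the median of ratios brought that median to -0.003. The split of calls then became 2386 higher and 2446 lower, against 4080 and 1203 as deposited. On the TPM scale, which divides each library by its own sum of FPKM, the median was 0.36 with 4858 higher and 810 lower. Among the 9 genes, 2 rose and 2 fell with median-of-ratios scaling (25.9% and 26.5% of all tested genes), and 4 rose and 1 fell on the TPM scale (52.6% and 8.78%). There were 3 higher and 2 lower with quantile normalization (24.1% and 25.0%), with scaling to reads outside the 100 most abundant genes (36.5% and 17.7%) and with a gene length trend removed (44.6% and 12.4%), and 3 higher and 0 lower with no expression minimum (24.2% and 6.39%).

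**Figure D1:**
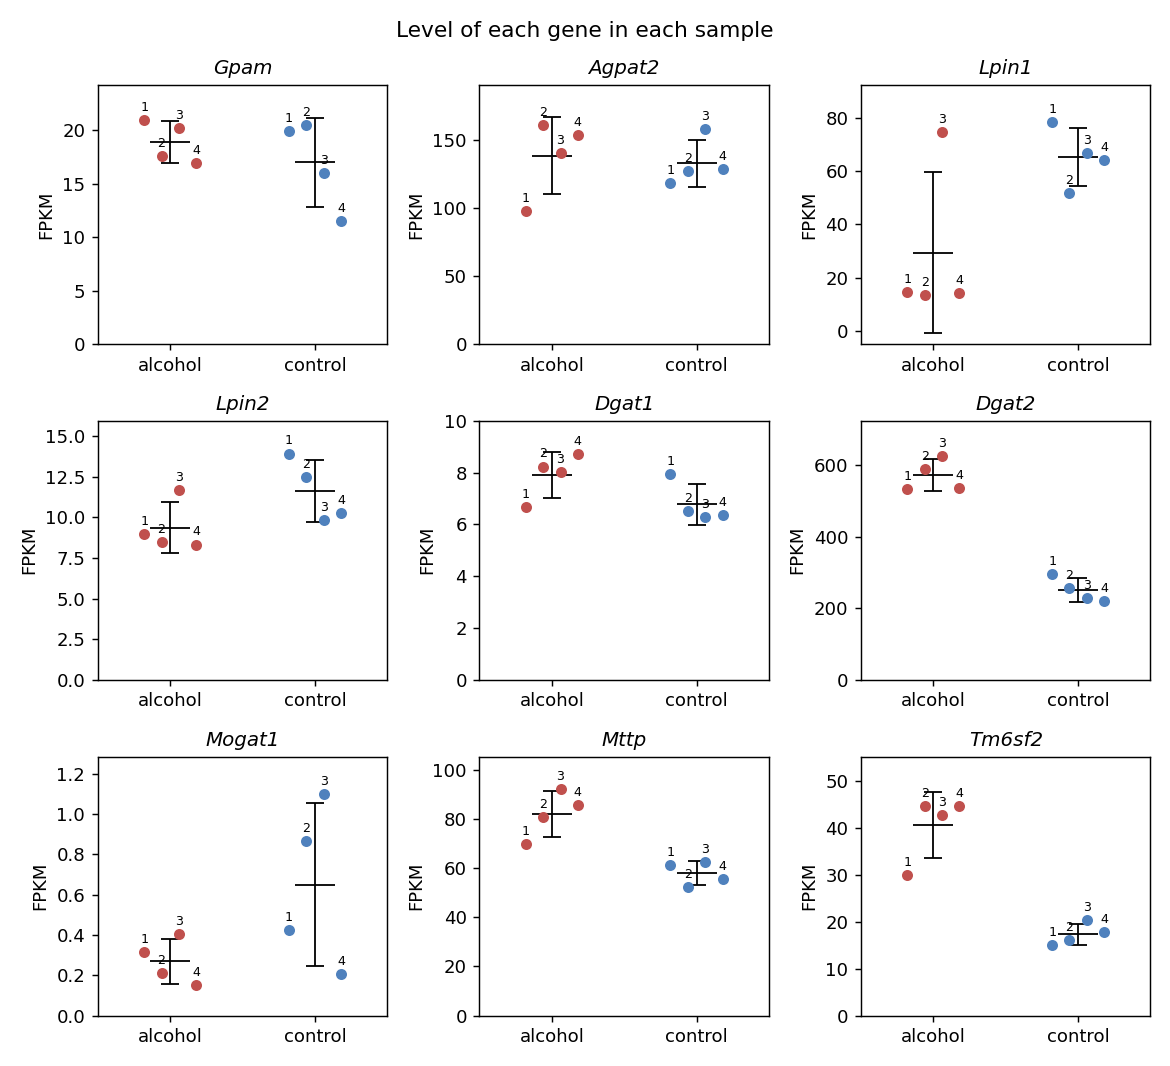
FPKM of each of the 9 genes in each sample, with 1 point per sample numbered by replicate, and a black bar for the mean with its SD over 4 samples. Dgat2, Mttp and Tm6sf2 do not overlap between the groups, and alcohol 3 holds 74.7 FPKM of Lpin1, within the range of the control samples.

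Promoter sequence is shown for Lpin1 and Mttp, the members past the test that have an entry in the RefSeq promoter table (build GRCm38.p6). The table held 9 windows for 6 of the 9 genes, each with 250 bases before and 50 after an annotated start. The deposited values are sums per gene and do not show which start was used. Capitals mark a match, on either strand, to any of 8 motifs. These were the TATA element with the letters TATAAA, the NF-Y motif with CCAAT, the Sp1 motif with GGGCGG, the E-box with CACGTG, the sterol regulatory element with TCACNCCAC, a site of nuclear receptors with AGGTCA, part of an HNF1 site with GTTAAT and the cyclic AMP response element with TGACGTCA. Both windows lie on the minus strand, at chr12:16610917-16611216 for Lpin1 and chr3:138143369-138143668 for Mttp, and are written 5′ to 3′.
Lpin1: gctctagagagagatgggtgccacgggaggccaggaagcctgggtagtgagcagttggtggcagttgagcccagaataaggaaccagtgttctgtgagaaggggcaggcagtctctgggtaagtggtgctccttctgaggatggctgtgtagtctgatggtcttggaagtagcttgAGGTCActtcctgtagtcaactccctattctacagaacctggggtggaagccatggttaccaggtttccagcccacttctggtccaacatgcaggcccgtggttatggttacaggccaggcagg
Mttp: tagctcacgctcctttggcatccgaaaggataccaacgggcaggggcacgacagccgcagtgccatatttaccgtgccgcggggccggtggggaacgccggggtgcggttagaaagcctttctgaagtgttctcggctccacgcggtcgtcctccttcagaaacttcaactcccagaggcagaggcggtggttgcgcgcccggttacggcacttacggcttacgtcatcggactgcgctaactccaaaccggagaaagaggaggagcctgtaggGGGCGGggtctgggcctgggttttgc
The Lpin1 window held 1 match, AGGTCA beginning at position -74 from the start, and 16.3% of the 32851 mouse windows of the table hold that motif. In the Mttp window the match was GGGCGG at 24 bases past the start, a motif that 35.7% of windows hold. The other motifs stood in 13.6% (TATAAA), 37.4% (CCAAT), 7.15% (CACGTG), 1.24% (TCACNCCAC), 7.10% (GTTAAT) and 1.79% (TGACGTCA) of all windows. These matches describe letters in a window, not binding.

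Gpam and Agpat2, the members among the acyltransferases that open the route, did not pass the test. Gpam encodes the acyltransferase of the mitochondrial outer membrane that makes lysophosphatidate from glycerol 3-phosphate (chromosome 19 from 55067268 to 55127238, minus strand, protein-coding, as all 9 genes are in GENCODE M21 on GRCm38). It stood at 20.9, 17.6, 20.2 and 16.9 FPKM in alcohol samples 1 to 4, against 19.9, 20.5, 15.98 and 11.5 FPKM in control samples 1 to 4. The groups overlapped widely, and control 4 was the lowest sample. The log2 change, alcohol minus control, was 0.17 ± 0.17 (SE), with a 95% interval of -0.19 to 0.54 and a limma adjusted p of 0.387. Agpat2, on chromosome 2 from 26593057 to 26604417 (minus strand), encodes the enzyme of the endoplasmic reticulum that adds the next fatty acid to give phosphatidate. Its loss causes an inherited lack of fat tissue in humans. Agpat2 stood at 98.0, 161, 140.5 and 154 FPKM in alcohol samples and at 119, 127, 158 and 129 FPKM in control samples. Alcohol 1 was the lowest of all 8 samples and alcohol 2 the highest. Its log2 change was 0.04 ± 0.16 (SE), 95% interval -0.32 to 0.40, limma adjusted p = 0.847. Exons of Agpat2 share 64 bases with Egfl7 on the other strand, and whether strand was used in counting is not given in the sources used here.

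Among the acyltransferases that share a reaction with Gpam, Gpat3 rose. Gpat3, an acyltransferase of the endoplasmic reticulum, stood at 26.95, 16.6, 18.1 and 16.3 FPKM in alcohol samples and at 2.02, 1.18, 1.46 and 1.07 FPKM in control samples. Every alcohol sample lay far above every control sample, with a log2 change of 3.06 ± 0.17 (SE, limma adjusted p = 6.45e-07). Gpat3 shares 1052 exon bases with an antisense gene, 4930458D05Rik, and 259 bases with Gm42987 on its own strand, and its value is uncertain to that extent. Of the summed FPKM of Gpam, Gpat2, Gpat3 and Gpat4, Gpat3 made up 22.8% to 36.1% in alcohol samples and 2.90% to 3.40% in control samples. Gpam made up 25.5% to 30.2% in alcohol samples and 30.6% to 50.2% in control samples, although its own level did not pass the test. Gpat4, the other form of the endoplasmic reticulum, did not pass (log2 change 0.12, limma adjusted p = 0.706). The sum of the 4 genes (mean ± SD, n = 4 in each group, as for every ± without SE) was 67.3 ± 11.5 FPKM in alcohol samples and 45.7 ± 13.6 FPKM in control samples, and the groups overlapped because of control 1 (65.1 FPKM). For the next acyl transfer, the sum of Agpat1 to Agpat5 and Lclat1 was 193 ± 27.7 FPKM in alcohol samples and 170 ± 15.9 FPKM in control samples. Agpat2 supplied 64.0% to 75.0% of that sum in alcohol samples and 73.4% to 81.5% in control samples. Agpat3, a related acyltransferase, supplied 16.8% to 24.7% in alcohol samples and 12.03% to 16.6% in control samples. The sums over isozymes were chosen after the values were seen, and they carry no test.

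**Figure D2:**
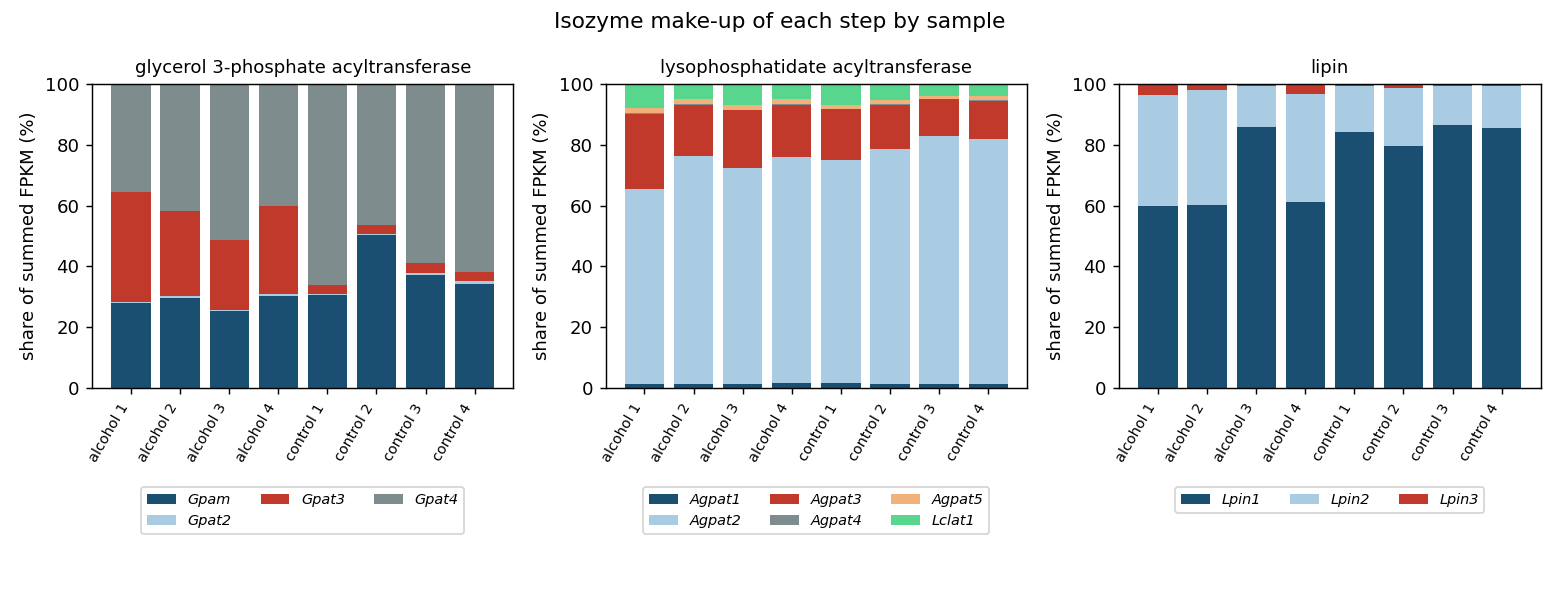
Share of each isozyme in the summed FPKM of its step, in percent, with 1 stacked bar per sample and alcohol samples on the left of each panel. The Gpat3 band is 22.8% to 36.1% in alcohol samples and 2.90% to 3.40% in control samples, and the lipin panel shows alcohol 3 with the make-up of the control samples.

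At the phosphatase step Lpin1 was lower in 3 of the 4 alcohol samples and at the control level in the other. Lipins remove the phosphate from phosphatidate to give diacylglycerol. Lpin1, which in mouse liver also acts in the nucleus as a partner of PGC-1alpha and rises with fasting, lies on chromosome 12 from 16535669 to 16610966 (minus strand). It stood at 14.7, 13.4, 74.7 and 14.3 FPKM in alcohol samples 1 to 4, and at 78.5, 51.9, 66.9 and 64.3 FPKM in control samples 1 to 4. Alcohol 3 was higher than 3 of the 4 control samples, while alcohol 1, 2 and 4 lay below all of them. These values rest on many reads, with 4202, 3710, 21461 and 3986 in alcohol samples and 13341 to 20446 in control samples. Lpin1 fell with a log2 change of -1.54 ± 0.45 (SE), 95% interval -2.54 to -0.54, limma adjusted p = 0.0137. Without alcohol 3 the log2 change was -2.12 and the adjusted p 5.18e-06 (range over all alternatives 5.18e-06 to 0.0601, the highest where all 21049 genes were fitted with no expression minimum).

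The position of alcohol 3 for Lpin1 was also counted over all genes, with no minimum on the size of the gap. Among 9228 tested genes, alcohol 3 lay inside the control range with the other alcohol samples all below it in 106 genes. The same count was 100 for alcohol 1, 122 for alcohol 2 and 69 for alcohol 4. By Pearson correlation of log2(FPKM + 1) over the 8 samples, which share their libraries, tested genes among those most like Lpin1 were Usp2 (0.974), Atosb (0.964), Pim3 (0.959) and Mfsd2a (0.943). Usp2, a deubiquitinase with a daily rhythm in liver, stood at 2.53, 2.73, 7.44 and 2.59 FPKM in alcohol samples and at 7.51 to 9.44 FPKM in control samples. Mfsd2a, a lysophospholipid carrier, stood at 6.48, 3.18, 25.8 and 2.83 FPKM in alcohol samples and at 19.98 to 39.7 FPKM in control samples. In these 4 genes alcohol 3 was the highest alcohol sample. They were picked for their likeness to Lpin1 over these same samples, so that position largely follows from the choice. For Mfsd2a and Pim3 alcohol 3 fell within the range of the control samples, and for Usp2 and Atosb it lay below them.

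Lpin2, the lipin related to Lpin1 that mouse liver also makes, did not pass the test as deposited. It lies on chromosome 17 from 71182560 to 71249817 (plus strand). Its values were 8.996, 8.45, 11.7 and 8.32 FPKM in alcohol samples, against 13.9, 12.5, 9.84 and 10.3 FPKM in control samples. Alcohol 3 was again the highest alcohol sample and the only one inside the control range. The log2 change was -0.28 ± 0.14 (SE), 95% interval -0.59 to 0.02, limma adjusted p = 0.0977. Relative to the median of all tested genes it was -0.53, and it passed the test under scaling by the median of ratios (-0.56, adjusted p = 0.00382), with quantile normalization and without alcohol 3 (-0.39, adjusted p = 0.0321; range over all alternatives 0.00232 to 0.435). The gene length recovered from the deposited values was 22389 bases for Lpin2, against 12233 exon bases in GENCODE M21, so its level may be understated beside those of other genes. Within the lipins, Lpin1 made up 59.8%, 60.04%, 85.8% and 61.2% of the summed FPKM in alcohol samples and 79.4% to 86.5% in control samples. The ratio of Lpin1 to Lpin2 was 1.63, 1.58, 6.402 and 1.72 in alcohol samples, and 4.16 to 6.80 in control samples. The exact 2-sided permutation p of that ratio was 0.114.

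The last acyl transfer was the step with the highest levels and a clear rise. Dgat1 and Dgat2 both join a fatty acid to diacylglycerol but belong to unrelated protein families. In mouse liver Dgat2 is tied more to fatty acids made in the cell and Dgat1 to fatty acids taken up. Dgat2 (chromosome 7 from 99153658 to 99182719, minus strand) stood at 535, 591, 627 and 538 FPKM in alcohol samples and at 296, 257, 229 and 220.5 FPKM in control samples. The lowest alcohol sample lay well above the highest control sample, and by mean level Dgat2 ranked 164 among all 21049 genes. Dgat2 rose with a log2 change of 1.19 ± 0.13 (SE), 95% interval 0.91 to 1.48, limma adjusted p = 3.83e-05. Over the 5 other scalings its change was 0.89 to 1.34, and 0.95 relative to the median of all tested genes as deposited. Of the 8 tested members it had the smallest p, ranking 409 of 9228 tested genes.

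Dgat1 (chromosome 15 from 76502015 to 76511953, minus strand) stood at 6.67, 8.24, 8.04 and 8.71 FPKM in alcohol samples and at 7.95, 6.51, 6.30 and 6.35 FPKM in control samples. Alcohol 1 and control 1 made the groups overlap. Its log2 change was 0.20 ± 0.11 (SE), 95% interval -0.05 to 0.44, limma adjusted p = 0.148, and without control 1 it passed (0.27, adjusted p = 0.0419, range over all alternatives 0.0408 to 0.575). The ratio of Dgat2 to Dgat1 was 80.2, 71.7, 77.9 and 61.7 in alcohol samples and 37.3, 39.5, 36.4 and 34.7 in control samples. A ratio within a sample does not depend on how libraries are scaled, and here every alcohol sample lay above every control sample. The fold, alcohol over control, was 1.96 (log2 difference 0.97), with an exact 2-sided permutation p of 0.0286, the smallest that 4 against 4 samples allow, and 0.0667 after Benjamini-Hochberg adjustment over 7 ratios.

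Mogat1, which makes diacylglycerol from monoacylglycerol and is known to be low in the livers of lean mice, was near the detection limit. It is at chromosome 1, 78510991 to 78538173 (plus strand), where its exons share 200 bases with BC035947 on the other strand. The values were 0.314, 0.209, 0.405 and 0.152 FPKM in alcohol samples (17, 11, 22 and 8 reads) and 0.427, 0.864, 1.10 and 0.209 FPKM in control samples (21, 42, 54 and 10 reads). Control 1, 2 and 3 stood above all alcohol samples, control 1 by little, while control 4 lay among them. In the fit over all 21049 genes the log2 change was -0.35 ± 0.17 (SE), 95% interval -0.74 to 0.05, limma adjusted p = 0.174. At levels this low the 1 FPKM added before taking logs shrinks that change, and the ratio of mean FPKM, alcohol over control, was 0.4155. Summed over samples and relative to library totals, Mogat1 had 0.417 times as many reads with alcohol (95% exact interval 0.2999 to 0.573, which covers counting error only). The sister gene Mogat2 had 31, 44, 31 and 54 reads in alcohol samples and 7, 31, 12 and 0 reads in control samples. The sum of both was 0.824 ± 0.0711 FPKM in alcohol samples and 0.839 ± 0.557 FPKM in control samples. Mogat1 supplied 16.7% to 49.1% of that sum in alcohol samples and 64.8% to 100% in control samples. The ratio of Mogat1 to Dgat2 was lower in every alcohol sample than in any control sample, at 0.204-fold (log2 difference -2.29, exact 2-sided permutation p = 0.0286, adjusted over the 7 ratios 0.0667). Dgat2 rose, as given above, and Mogat1 alone overlapped between the groups, so this ratio does not measure Mogat1 alone.

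Both loading factors rose, and Tm6sf2 by the larger amount. Mttp encodes the large subunit of the microsomal triglyceride transfer protein, which hands lipid to apolipoprotein B as it is made. The gene is at chromosome 3, 138089854 to 138144968 (minus strand), where its exons share 457 bases with Trmt10a and 132 bases with Gm43691 on the other strand. Mttp stood at 69.6, 80.9, 92.1 and 85.5 FPKM in alcohol samples and at 61.3, 52.5, 62.6 and 55.8 FPKM in control samples. The groups did not overlap, although alcohol 1 lay near the highest control sample. Mttp rose with a log2 change of 0.49 ± 0.11 (SE), 95% interval 0.24 to 0.74, limma adjusted p = 0.00422. Relative to the median of all tested genes that change was 0.24. With median-of-ratios scaling it was 0.19 and did not pass (adjusted p = 0.193, range over all alternatives 0.00133 to 0.193).

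Tm6sf2 encodes a membrane protein of the endoplasmic reticulum that VLDL needs for its full load of lipid, and in humans a common variant of it is linked to fatty liver. The gene lies on chromosome 8 from 70072924 to 70080066 (plus strand). It stood at 30.0, 44.7, 42.7 and 44.6 FPKM in alcohol samples and at 14.99, 16.03, 20.3 and 17.8 FPKM in control samples. Every alcohol sample was above every control sample, with alcohol 1 apart from the other alcohol samples on the low side. Tm6sf2 rose with a log2 change of 1.17 ± 0.15 (SE), 95% interval 0.853 to 1.497, limma adjusted p = 9.66e-05. Its change over the 5 other scalings was 0.88 to 1.37. The ratio of Tm6sf2 to Mttp was 0.431, 0.553, 0.464 and 0.522 in alcohol samples and 0.244, 0.306, 0.323 and 0.320 in control samples. These groups did not overlap either, with a fold of 1.65 (log2 difference 0.73, exact 2-sided permutation p = 0.0286, adjusted over the 7 ratios 0.0667). Mttp did not separate from Apob, the structural protein of VLDL. Their ratio was 0.189, 0.250, 0.249 and 0.249 in alcohol samples and 0.154, 0.209, 0.262 and 0.232 in control samples, with an exact permutation p of 0.543. Apob stood at 324 to 370 FPKM in alcohol samples and at 239 to 399 FPKM in control samples (limma adjusted p = 0.0967), and control 1 was the highest of all samples.

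**Figure D3:**
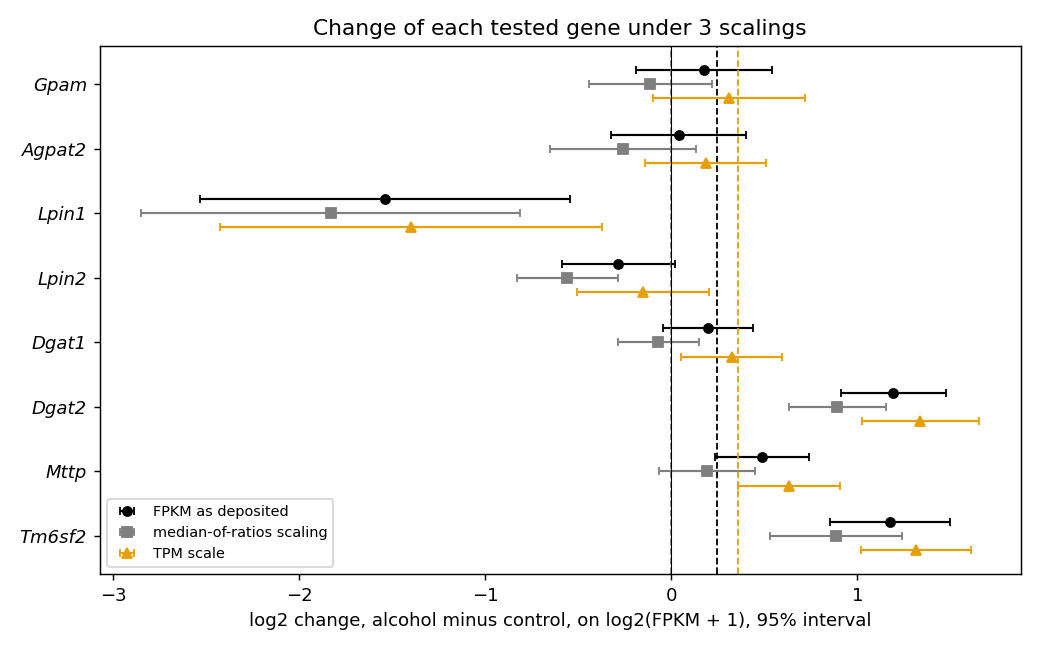
Log2 change (alcohol minus control) with its 95% interval for the 8 tested genes, under the deposited FPKM, median-of-ratios scaling and the TPM scale, with dashed lines at the median of all tested genes. Dgat2 and Tm6sf2 lie to the right of all 3 medians, Lpin1 lies to the left, and the interval of Mttp spans 0 with median-of-ratios scaling.

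**Figure D4:**
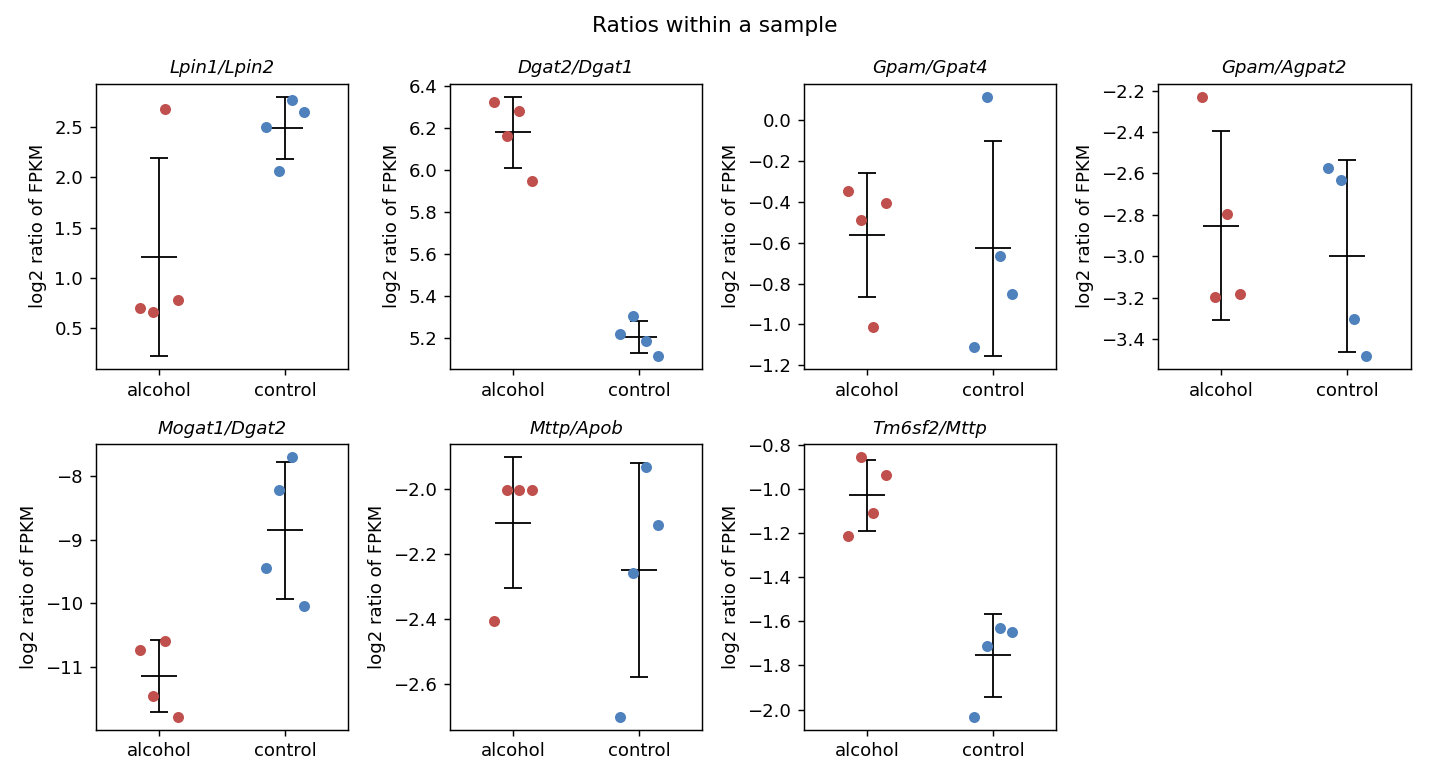
Log2 ratio of FPKM between paired genes within each sample, with 1 point per sample and a black bar for the mean with its SD over 4 samples. The groups are apart for Dgat2/Dgat1, Mogat1/Dgat2 and Tm6sf2/Mttp, and they overlap for the other 4 ratios.

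The 2 ratios not yet given, Gpam to Gpat4 and Gpam to Agpat2, overlapped between the groups, with log2 differences of 0.06 and 0.15 and exact permutation p of 0.857 and 0.657. None of the 7 ratios passed 0.05 after adjustment, which this test could hardly allow. Dgat2/Dgat1, Mogat1/Dgat2 and Tm6sf2/Mttp were already at the smallest permutation p that 4 against 4 samples allow (0.0286), and adjustment raised it to 0.0667. In mean level (mean ± SD, n = 4 in each group) the members ran from Dgat2, at 573 ± 44.4 FPKM in alcohol samples and 251 ± 34.1 FPKM in control samples, through Agpat2, at 138 ± 28.3 FPKM in alcohol samples and 133 ± 17.2 FPKM in control samples. Mttp followed in alcohol samples, at 82.0 ± 9.46 FPKM, against 58.05 ± 4.77 FPKM in control samples. Tm6sf2 averaged 40.5 ± 7.06 FPKM in alcohol samples and 17.3 ± 2.31 FPKM in control samples. Lpin1 averaged 29.3 ± 30.3 FPKM in alcohol samples and 65.4 ± 10.9 FPKM in control samples, so it stood below Mttp and Tm6sf2 by mean with alcohol and above both in control samples, and its SD in alcohol samples was larger than its mean. Gpam, Lpin2, Dgat1 and Mogat1 followed in that order in both groups, at means of 18.9, 9.36, 7.92 and 0.270 FPKM in alcohol samples and 16.98, 11.6, 6.78 and 0.650 FPKM in control samples. In alcohol 1, 2 and 4 Lpin1 lay below Gpam, so its place before Gpam rests on alcohol 3. Lpin2 and Dgat1 did not differ beyond their spread in alcohol samples, and Lpin1 and Mttp did not in control samples. Neither did Tm6sf2 and Gpam in control samples, where Gpam lay above Tm6sf2 in control 1 and 2 and below it in control 3 and 4.

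Among neighbouring enzymes of triglyceride assembly, 8 of 13 tested genes rose and 1 fell (5 to 8 and 1 over the 5 other scalings). Over all tested genes 44.2% were called higher and 13.0% lower (24.1% to 52.6% and 8.78% to 26.5% over those scalings). The median log2 change of the list was 0.44, against 0.24 over all tested genes. Besides Gpat3, Plpp1, a phosphatase of lipid phosphates, stood at 15.8 ± 3.64 FPKM in alcohol samples and 2.51 ± 0.0918 FPKM in control samples. Exons of Plpp1 share 452 bases with Mtrex on the other strand. Acsl4, a fatty acid activating enzyme that favours arachidonate, rose to 31.5 ± 2.91 FPKM in alcohol samples, against 7.11 ± 2.98 FPKM in control samples. Acsl1, a main fatty acid activating enzyme of liver, fell to 89.1 ± 12.6 FPKM in alcohol samples, against 175 ± 22.4 FPKM in control samples. Limma adjusted p-values were 1.92e-06, 2.32e-05 and 0.000198 for these 3 genes. All 7 endothelial markers and 5 of 8 stellate cell markers were also higher in these alcohol samples, as given above. The stellate cell marker Col3a1 was lower, and the part of such marker differences in these changes was not tested.

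For the supply of glycerol 3-phosphate, of 6 tested genes 1 rose and 1 fell (0 to 1 and 0 to 3 over the 5 other scalings). Over all tested genes 44.2% were called higher and 13.0% lower. The median log2 change of the list was -0.001, against 0.24 over all tested genes. With median-of-ratios scaling 0 rose and 3 fell (25.9% and 26.5% of all tested genes), with a median of -0.30. Both calls made on the deposited values were lost in 5 of the 8 fits that left out 1 library. These were the fits without alcohol 1, alcohol 3, control 2, control 3 or control 4. The dehydrogenase Gpd2 averaged 8.72 ± 0.541 FPKM in alcohol samples and 7.05 ± 1.05 FPKM in control samples, a rise that only just passed (limma adjusted p = 0.0496) and that turned to a log2 change of -0.01 with quantile normalization (range of adjusted p over all alternatives 0.0093 to 0.955). Pgp, a phosphatase that also acts on glycerol 3-phosphate, fell to 5.66 ± 0.745 FPKM in alcohol samples, against 7.05 ± 0.242 FPKM in control samples (limma adjusted p = 0.035). That call was lost on the TPM scale and without any 1 of alcohol 1, alcohol 3 and the 4 control samples (range over all alternatives 0.00127 to 0.223).

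In VLDL assembly and export, of 20 tested genes 2 rose and 7 fell (0 to 5 and 5 to 8 over the 5 other scalings). Over all tested genes 44.2% were called higher and 13.0% lower (24.1% to 52.6% and 8.78% to 26.5% over those scalings). The median log2 change of the list was 0.02, against 0.24 over all tested genes. Its counts were 5 higher and 6 lower without control 1, and 2 higher and 4 lower both without control 3 and with no expression minimum. Sec23a, a coat protein of the vesicles that leave the endoplasmic reticulum, rose to 27.9 ± 4.65 FPKM in alcohol samples, against 18.2 ± 2.45 FPKM in control samples (limma adjusted p = 0.00436), a call that median-of-ratios scaling removed (adjusted p = 0.0754, range over all alternatives 0.000771 to 0.0754). The phospholipid transfer protein Pltp fell to 8.68 ± 1.02 FPKM in alcohol samples, against 34.4 ± 17.5 FPKM in control samples, with a log2 change of -1.74 ± 0.29 (SE, limma adjusted p = 0.000614). Cideb, a lipid droplet protein that takes part in VLDL lipidation, fell to 156 ± 18.7 FPKM in alcohol samples, against 261 ± 34.2 FPKM in control samples (adjusted p = 0.001 by limma). The liver esterase Ces3a fell to 462 to 683 FPKM in alcohol samples, against 1030 to 1218 FPKM in control samples (limma adjusted p = 0.000427). Exons of Cideb share 1136 bases, 76.3% of its exon bases, with Nop9 on the other strand. Exons of Pltp share 495 bases (19.3%) with Ctsa, also on the other strand. The strand setting is not known, so both values are uncertain to that extent, that of Cideb for most of its exon bases.

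Where the route branches to phospholipids, 4 of 9 tested genes rose and 1 fell (2 to 4 and 1 to 2 over the 5 other scalings), near the shares of 44.2% and 13.0% over all tested genes. The median log2 change was 0.24, as over all tested genes. Pcyt2, which controls the making of phosphatidylethanolamine from diacylglycerol, fell to 89.0 ± 9.13 FPKM in alcohol samples, against 151 ± 6.45 FPKM in control samples (limma adjusted p = 0.000205). Cds2, which draws phosphatidate toward phosphatidylinositol, rose to 9.14 ± 1.26 FPKM in alcohol samples, against 5.45 ± 1.14 FPKM in control samples (limma adjusted p = 0.00224). Dgkz, a kinase that turns diacylglycerol back to phosphatidate, rose to 3.34 ± 0.324 FPKM in alcohol samples, against 1.84 ± 0.201 FPKM in control samples, and Cept1, a choline and ethanolamine phosphotransferase, to 6.87 ± 0.453 FPKM in alcohol samples, against 5.09 ± 0.301 FPKM in control samples (limma adjusted p = 0.000411 for Dgkz and 0.00516 for Cept1). The call of Cept1 was lost with median-of-ratios scaling, quantile normalization and removal of a gene length trend, and its exons share 771 bases with Dennd2d.

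Of 15 tested regulators of lipid genes 4 rose and 4 fell (2 to 5 and 4 over the 5 other scalings), with a median log2 change of 0.15 against 0.24 over all tested genes, of which 44.2% were higher and 13.0% lower. Insig2, which holds SREBP precursors in the endoplasmic reticulum, rose to 46.8 ± 3.65 FPKM in alcohol samples, against 11.3 ± 2.81 FPKM in control samples (limma adjusted p = 3.71e-06). Its relative Insig1 fell to 14.8 ± 4.31 FPKM in alcohol samples, against 39.7 ± 10.6 FPKM in control samples (limma adjusted p = 0.000635). Srebf1, the transcription factor of fatty acid synthesis, fell to 11.5 ± 1.31 FPKM in alcohol samples, against 35.1 ± 7.59 FPKM in control samples (limma adjusted p = 2.14e-05). Ppara, the receptor that drives fatty acid oxidation, stood at 7.48, 8.46, 13.9 and 8.83 FPKM in alcohol samples and at 20.8 to 29.8 FPKM in control samples (limma adjusted p = 0.000233). Alcohol 3, the sample with control-level Lpin1, was the highest alcohol sample for Ppara but still lay below every control sample.

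**Figure D5:**
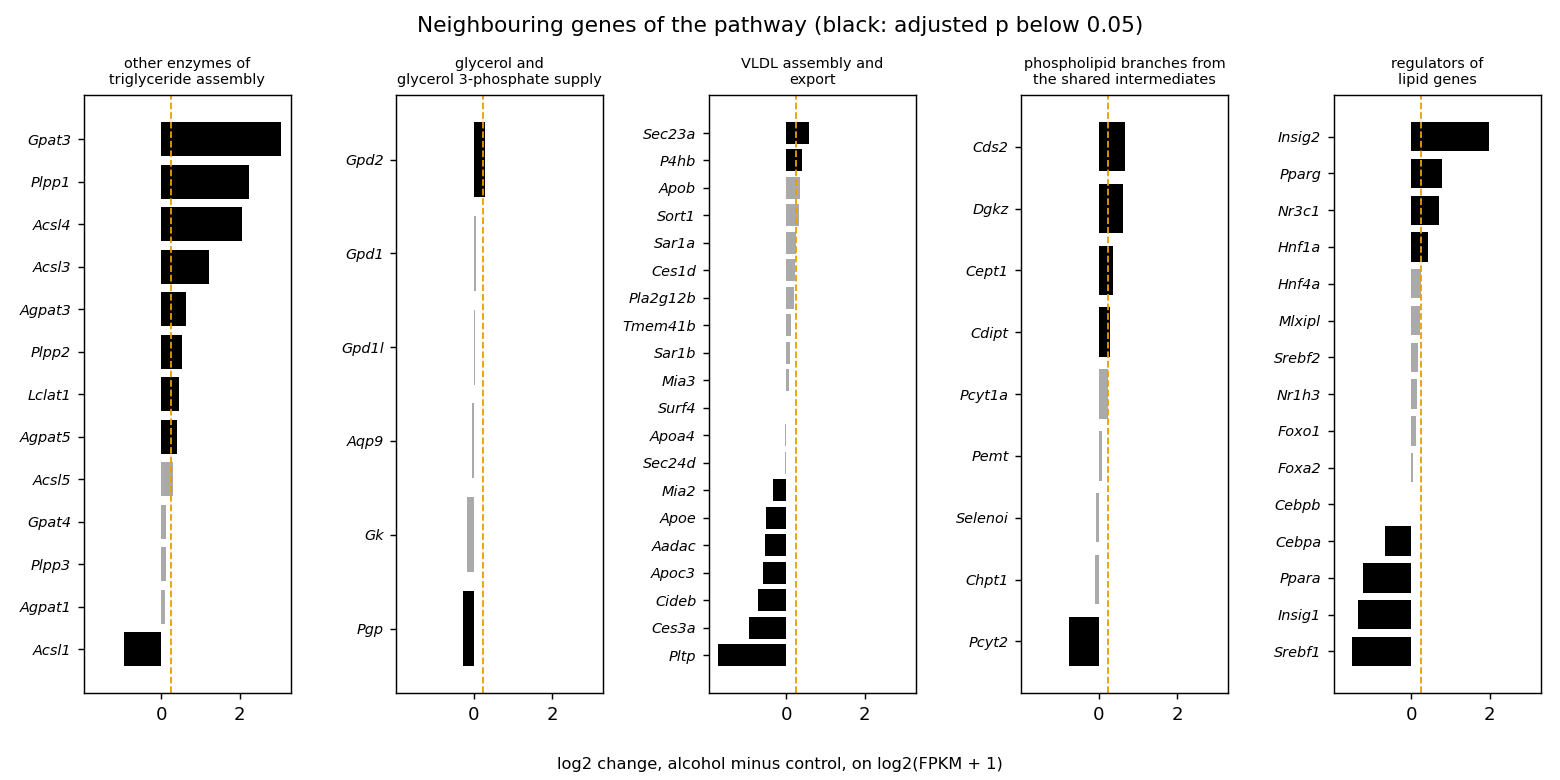
Log2 change (alcohol minus control, on log2(FPKM + 1)) of each tested gene in the 5 neighbouring lists, with black bars for limma adjusted p below 0.05, grey bars for the rest and a dashed line at the median of all tested genes (0.24). Among the other enzymes of triglyceride assembly 8 of 13 bars are black and above 0, and in VLDL assembly and export 7 of 20 are black and below 0. Over all tested genes 44.2% were called higher and 13.0% lower.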

How the data were processed

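RNA was sequenced from 4 alcohol and 4 control samples, with SMARTER mRNA libraries per the labels' protocols. The authors deposited FPKM, 1 column per sample. The submitters' processing notes name GRCm38 and mm10, and the aligner, counter, strand setting and annotation were not found there or in the labels. Whole reads were recovered for 21043 of 21049 genes. This was done by finding the library totals and gene lengths that make the values whole, to 2e-06 of a read. The reads served to give depth, the read counts and read ratio given above, the chi-square per gene between samples and 1 alternative test. Scaling to reads outside abundant genes also used them, and removal of a gene length trend used the recovered lengths. Groups were compared on log2(FPKM + 1) with limma (version 3.58.1; R version 4.3.3) and a trend on mean level, keeping genes that averaged 1 FPKM or more. A fold on that scale understates changes of low genes. Ratios within a sample were compared by exact permutation with scipy 1.17.1. The fit was tested on simulated data. Coordinates and exon overlaps come from GENCODE M21. Lpin2 was not alone in a recovered length unlike its exon bases there. The recovered length was 0.443 times those bases for Pcyt2, 2.02 for Insig2, 2.04 for Dgkz, 2.72 for Ppara and 3.55 for Cept1. Levels compared between genes are uncertain to that extent. The members, lists and tests were chosen with earlier results of these data known. The named genes are all 9 members, up to 4 called genes by smallest p in each list, Apob and Gpat4, and the 5 genes most like the member with the largest called change, of which 1 is not reported here. Spearman correlations between samples ranged from 0.968 to 0.995 inside a group and from 0.884 to 0.926 across groups. Alcohol 2 and alcohol 4 were the closest pair (chi-square per gene of 10.1, next lowest 56.6, above sampling noise), and each was counted as 1 sample.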

Additional observations from a re-analysis of the deposited data

Results flagged for a closer look

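In 82 groups of 4 samples, covering the members, the named neighbouring genes, the ratios and the sums over isozymes, 11 held a sample whose gap to its nearest companion was past the critical value of Dixon's test as a share of the group's range. Chance gives this in about 5% of groups, and groups that share samples are not independent.

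Alcohol 3 was far above the other alcohol samples for Lpin1, at 74.7 FPKM with a gap of 0.9785 of the range, for the log2 ratio of Lpin1 to Lpin2 (0.9381) and for the lipin sum, at 87.0 FPKM (0.9643). Alcohol 1 was apart on the low side for Tm6sf2 (30.0 FPKM, 0.8659), Cept1 (6.20 FPKM, 0.8657) and the log2 ratio of Mttp to Apob (-2.41, 0.9947), and on the high side for Gpat3 (26.95 FPKM, 0.8345). Control 1 was apart on the high side for Apob (399 FPKM, 0.9253) and Dgat1 (7.95 FPKM, 0.8755). Control 2 was the lowest control sample for Ces3a (1030 FPKM, 0.9368). Control 3 was the highest for the sum of Agpat1 to Agpat5 and Lclat1 (194 FPKM, 0.8875). Over all 9228 tested genes the share with such a lone sample was 4.79% for control 1, 3.96% for alcohol 1, 1.64% for alcohol 3 and 0.412% to 0.899% for the other samples.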

How the results depend on the processing

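Of 28 named genes with alternatives, 19 kept their direction where called and their side of the threshold in every alternative run, among them Dgat2 and Tm6sf2. With median-of-ratios scaling 2386 of 9228 tested genes were higher and 2446 lower, and with quantile normalization 2221 and 2307. At a minimum of 5 FPKM only 5205 genes were tested, of which 1981 were higher. Of the 9 genes, 2 were lower with median-of-ratios scaling, quantile normalization, scaling to reads outside the 100 most abundant genes and removal of a gene length trend (Lpin1 and Lpin2), and 0 with no expression minimum. The cause was not tested. Leaving out 1 replicate gave 3590 to 4402 genes higher and 995 to 1277 lower, and 3 to 4 and 1 to 2 of the 9 genes. The log2 change of Gpd2 turned to -0.0074 with quantile normalization. Leaving out 1 replicate gave log2 differences of 0.93 to 1.05 for Dgat2/Dgat1, 0.63 to 0.79 for Tm6sf2/Mttp, -2.69 to -1.91 for Mogat1/Dgat2 and -1.77 to -1.10 for Lpin1/Lpin2, with no test, since 3 against 4 cannot go below 0.0571. Deviations of same-numbered samples correlated with r of 0.07 to 0.35, and no label says that a number marks a shared litter or day, so the numbers were not taken to pair samples. A fit with the replicate block gave 4307 genes higher and 1380 lower and changed no call among the 9 genes, and the sign-flip test of paired ratios cannot go below 0.125. The scaling to reads outside abundant genes, the length trend, voom and an average of alcohol 2 and 4 were chosen after seeing the data. edgeR and DESeq2, which were planned, were not run. Limma voom on the recovered reads gave 4087 genes higher and 1188 lower. Among the 9 genes, low read counts limited Mogat1.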
